A study of Homo sapiens with 6 samples.

Results

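The genes described here encode the SR proteins, the heterogeneous nuclear ribonucleoproteins (hnRNPs) and core proteins of the small nuclear ribonucleoprotein particles (snRNPs), the factors that remove introns from pre-mRNA. They were chosen by symbol, as the genes whose names begin with SRSF and a number, HNRNP, SNRP, SF3A or SF3B and a number, U2AF1 or U2AF2, or PRPF and a number. Of the 15651 genes in the table, 69 matched. An antisense transcript and a pseudogene were dropped, which left 67: 11 SRSF, 20 HNRNP, 11 SNRP, 9 SF3A or SF3B, 3 U2AF and 13 PRPF genes. RNA of MDA-MB-231, a human triple-negative breast cancer (TNBC) cell line, was sequenced after DMSO, the solvent, in 3 libraries and after BRL-50481 in 3 more. The study describes BRL-50481 as selective for the phosphodiesterase 7 (PDE7) family and uses it to inhibit the cAMP-degrading member PDE7A. The treatment was 50 μM for 72 h by the protocol in the labels, the design text of the series and the study, while the treatment tag of each treated library reads 5 μM for 48 h. The series describes the 3 libraries of a group as biological replicates, and all 6 come from a single cell line.

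In splicing, the U1 snRNP pairs with the start of an intron, the U2 snRNP with its branch point, and the U4/U6.U5 tri-snRNP then joins to build the catalytic spliceosome. The snRNPs share a ring of Sm proteins around their RNA, and SF3A and SF3B are the protein complexes that let U2 hold the branch point. U2AF binds the end of the intron. SR proteins bind exons through RNA recognition motifs and recruit the snRNPs through arginine and serine repeats, while many hnRNPs bind introns or exons and oppose or shift splice site choice.

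The deposited values are read counts per gene, scaled by a size factor per library and called normalized counts below. Every value was, within 1e-06, a whole multiple of what 1 read is worth in its library, 0.969 to 1.021 normalized counts, which corresponds to 30750573 to 33446984 reads on genes per library. DMSO replicate 1 stood apart from the other DMSO libraries, with 13.7 and 22.1 as its chi-square per degree of freedom against them, where replicates 2 and 3 gave 3.99 against each other and the BRL-50481 pairs 2.63 to 3.53. The counts of members are therefore also given without it. Of 7 markers of the line, VIM was the highest, with a mean of 58840 normalized counts with DMSO, and SPARC was low at 14.9, 13.7 and 13.3, and all 7 were higher in BRL-50481 (sums from 184800 to 188400 with DMSO and from 257100 to 261400 after treatment). Of 8 receptor and epithelial genes, 7 had a row, with sums of 20650 to 24250 with DMSO and 20530 to 21650 after treatment. KRT18 (means 15205 and 12278) and KRT8 (6521 and 7716) made up most of these sums. Of the 6 that were tested, 3 were higher, CDH1 (log2 fold change 1.39), GATA3 (0.57) and KRT8 (0.25). The other 3 were lower, FOXA1 (−1.02), KRT18 (−0.31) and EPCAM (−0.16), and PGR was at 0 to 7.75 normalized counts. Of 7 genes that mark immune, endothelial or fat cells, PECAM1 and LYZ had values (sums from 331.1 to 408.8 with DMSO and from 488.5 to 571.1 after treatment), and the part of these shifts in the results was not tested. PDE7A, the target of the compound, was at 406 ± 2.06 (SD, n = 3) normalized counts with DMSO and at 298 ± 40.6 (SD, n = 3) after treatment.

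Of the 66 splicing factor genes that could be tested, 37 fell with BRL-50481, 16 rose, and 13 did not pass the threshold (limma on log2 normalized counts after adding 1, Benjamini-Hochberg adjusted p under 0.05 over 15246 genes). By family, 9 of the 11 SNRP genes fell and SNRPA rose 3.64-fold, and 7 of the 9 SF3A and SF3B genes fell, whereas the SR protein genes divided into 6 that rose and 4 that fell, and the hnRNP genes into 7 and 10. Over all genes tested, 28.9% were higher and 29.8% were lower, so that a call by itself says little in these libraries. Splicing factor genes are abundant, and among the 6576 genes whose mean was 1000 normalized counts or more, 29.2% were higher and 40.5% were lower. Of the 59 members above that level, 35 were lower and 14 were higher. The median log2 fold change was −0.19 over the members and 0.015 over all genes tested. Without DMSO replicate 1, 38 members were lower and 17 higher. In that fit 4912 of all genes were lower and 4868 higher, against 4546 and 4400 with all 6 libraries. The groups were fully apart in 54 members, 37 of them lower and 17 higher, where 64.2% of all genes tested showed no overlap, 32.3% lower and 31.9% higher. A called change past 1 on the log2 scale was reached by SNRPA upward and SF3B6 downward, and by 5.06% and 2.98% of all genes tested. In whole-culture RNA, fewer cells that carry a transcript and less of it per cell cannot be told apart.

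**Figure D1:**
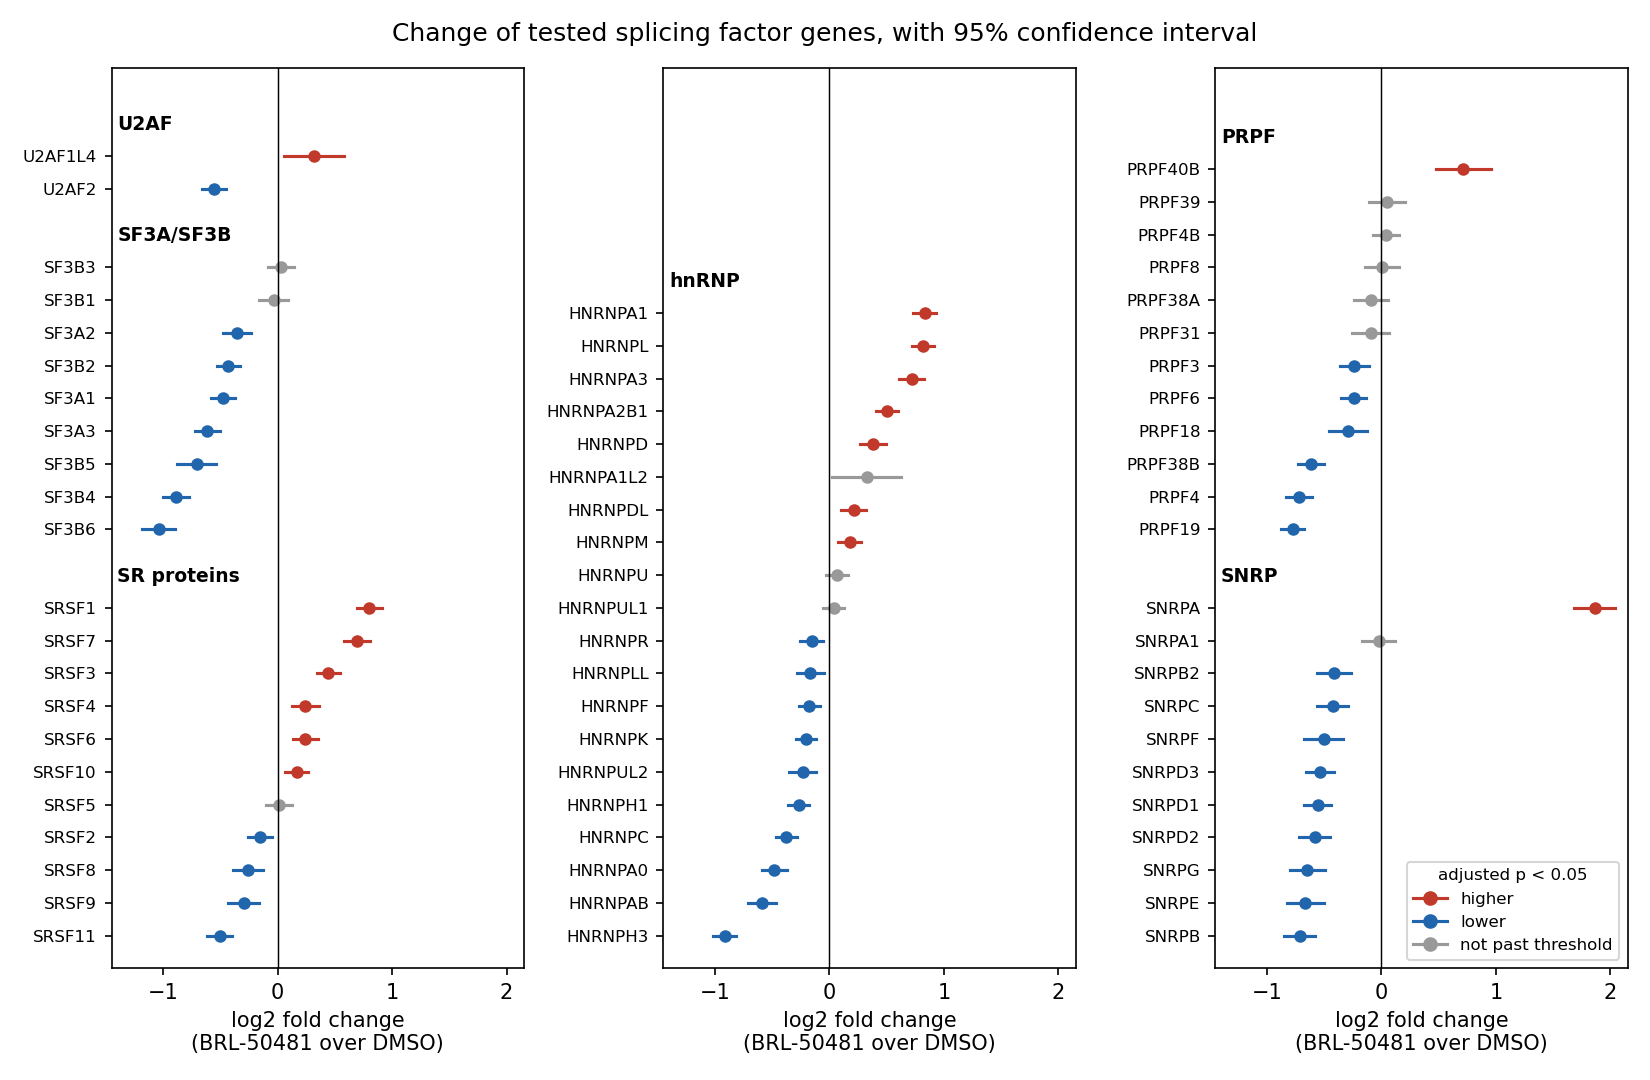
Log2 fold change of BRL-50481 over DMSO for 65 of the tested splicing factor genes (x axis), ordered within families, with bars for the 95% confidence interval from limma and colour for the call at an adjusted p under 0.05. SNRPA stands alone at 1.86, the other SNRP genes and most SF3 genes lie left of 0, and the SR and hnRNP genes spread to both sides.

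Summed over the 67 genes, the normalized counts went from between 394813 and 404376 with DMSO down to between 368300 and 376807 after treatment, with no overlap. The library totals were smaller after treatment as well, at 30956797 to 31073526 against 32547451 to 32763957, and as a share of the library the 67 genes took 1.21 to 1.23% and 1.19 to 1.22%, which overlap. The SNRP genes went from 0.122 to 0.143% of a library down to 0.0994 to 0.103%, the SF3 genes from 0.167 to 0.17% down to 0.134 to 0.136%, and the PRPF genes from 0.151 to 0.16% down to 0.142 to 0.145%. The SR protein genes went from 0.117 to 0.123% up to 0.134 to 0.136%. The ranges of these 4 families did not overlap, either as shares or as sums. For the hnRNP genes the scale decided, since their share went from 0.623 to 0.637% up to 0.66 to 0.686%, whereas their sums of 202783 to 207945 with DMSO and 204501 to 212434 after treatment overlapped.

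The largest change of any member was the rise of SNRPA, which encodes protein A of the U1 snRNP. It had 690, 900 and 787 normalized counts with DMSO replicates 1, 2 and 3 and 2775, 2987 and 2851 in the BRL-50481 replicates. The groups lay far apart, 1.86 apart on the log2 scale (adjusted p = 3.19e-09, standard error 0.0836), at the 99.0 percentile of all genes tested, and the difference was 1.77 to 1.96 when any 1 library was left out. The gene lies on chromosome 19 of hg38, from 40750637 to 40765389 on the plus strand, and no exon of another GENCODE gene overlaps its exons on that strand. Its nearest tested neighbours, chosen after the value of SNRPA was seen, went both ways with smaller changes: C19orf54, on the opposite strand across its start, by 0.26 (adjusted p = 0.00491), ITPKC, upstream on the same strand, by −0.24 (adjusted p = 0.0085), and, farther upstream, ADCK4 by 0.80 and NUMBL by −0.75. Per kilobase of transcript, SNRPA went from 620 to 2250 normalized counts. SNRPC, protein C of the same particle, which steadies the pairing of U1 with the splice site, fell over the same treatment, from 4289, 5078 and 4566 normalized counts to 3441, 3325 and 3604 (log2 fold change −0.42, standard error 0.0630, adjusted p = 7.44e-05). With 5760 and 4290 normalized counts per kilobase it remained above SNRPA in both groups. SNRNP70, the remaining U1-specific protein and outside the symbols chosen, was lower as well (−0.24, standard error 0.0633, adjusted p = 0.00538).

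All 7 genes of the Sm ring fell, within a narrow range of log2 fold changes from −0.71 to −0.503. SNRPB, which encodes SmB and SmB′, was the most abundant member of its family per kilobase (14200 normalized counts with DMSO and 8670 in BRL-50481). It had 14005, 17101 and 15120 normalized counts with DMSO and 9293, 9452 and 9394 in BRL-50481. Every treated library lay below every control library, and the DMSO libraries spread more widely than the BRL-50481 libraries (log2 fold change −0.71, standard error 0.0624, adjusted p = 7.45e-07). SNRPE had 1640, 1792 and 1627 normalized counts with DMSO and 1184, 975 and 1042 in BRL-50481 (log2 fold change −0.66, standard error 0.0758, adjusted p = 7.45e-06), and SNRPG had 887, 927 and 1007 in DMSO and 611, 595 and 591 in BRL-50481 (−0.65, standard error 0.0713, adjusted p = 5.37e-06). SNRPD2 (−0.58), SNRPD1 (−0.55), SNRPD3 (−0.54) and SNRPF (−0.503) completed the ring, each with adjusted p of 0.000103 or less. Of the U2-specific proteins, SNRPB2 (protein B″) was lower (log2 fold change −0.41, standard error 0.0679, adjusted p = 0.000168), while SNRPA1 (protein A′), with 1098 to 1231 normalized counts in the controls and 1117 to 1215 under BRL-50481, did not pass the threshold (−0.022, 95% confidence interval −0.166 to 0.122). Some of these values are uncertain, since GENCODE holds pseudogenes named after SNRPG (20), SNRPC (18) and SNRPE (10), to which reads could be split, and exons of SNRPB, SNRPD3 and SNRPA1 overlap other annotated genes on their strand. The transcripts of this family are also short, with a median of 1082 bases against 3164 over all genes tested, and after a correction for transcript length and GC content 9 were still lower and 1 higher, with a median of −0.483 in place of −0.537.

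**Figure D2:**
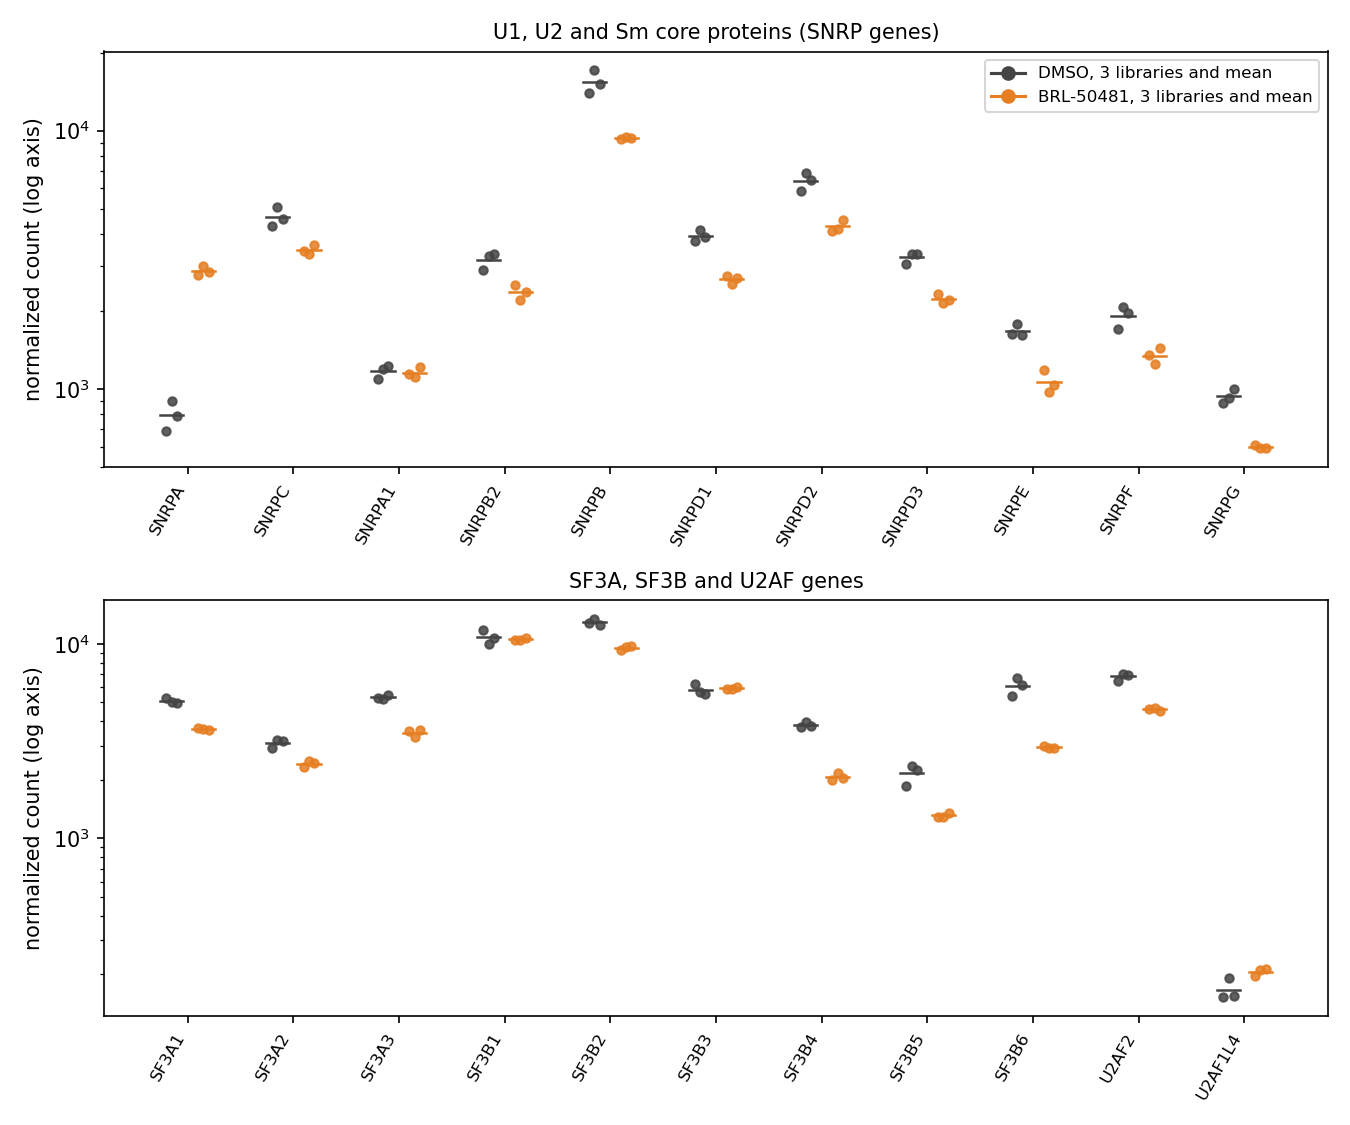
Normalized counts (y axis, log scale) in each of the 6 libraries for the SNRP genes (upper panel) and for the SF3A, SF3B and tested U2AF genes (lower panel), with points for libraries and lines for group means. SNRPA rises from 690 to 900 up to 2775 to 2987, the 7 Sm genes (SNRPB to SNRPG) each drop below their DMSO range, and SF3B1 and SF3B3 overlap between the groups.

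The complexes that seat U2 on the branch point fell in most of their subunits. SF3A1, SF3A2 and SF3A3, the whole of SF3A, were lower by 0.47, 0.35 and 0.61 on the log2 scale. Within SF3B, the small subunits fell most. SF3B6, the p14 protein that touches the branch point, had 5406, 6630 and 6105 normalized counts with DMSO and 2992, 2906 and 2899 in BRL-50481, the largest fall of any member (log2 fold change −1.04, standard error 0.0660, adjusted p = 4.85e-08), and it was also the most abundant SF3 gene per kilobase, at 9290 and 4500 normalized counts. SF3B4 had 3754, 3948 and 3782 in DMSO and 2002, 2171 and 2033 in BRL-50481 (−0.89, standard error 0.0533, adjusted p = 3.03e-08). SF3B5 had 1867, 2364 and 2235 in DMSO and 1291, 1295 and 1356 in BRL-50481 (−0.71, standard error 0.0785, adjusted p = 5.79e-06). The groups were apart for all 3 small subunits, and PHF5A, the further small SF3B subunit named under another symbol, lay at −0.80 (standard error 0.0686, adjusted p = 5.98e-07). SF3B2 fell by 0.43. The large scaffold proteins did not pass the threshold, with SF3B1, the subunit most often mutated in blood cancers, at −0.034 (95% confidence interval −0.158 to 0.0907) and SF3B3 at 0.027 (−0.0872 to 0.140). Their transcripts are long (6463 and 9692 bases), and after the correction for length and GC content all 9 SF3 genes were lower, so that the call for SF3B1 and SF3B3 depends on that choice. The correction also raised the number of all genes called lower, from 4546 to 5551.

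U2AF2, the large subunit that reads the pyrimidine tract, had 6454, 7005 and 6925 normalized counts with DMSO and 4629, 4695 and 4532 in BRL-50481 (log2 fold change −0.56, standard error 0.0490, adjusted p = 7.75e-07), with no overlap between the groups. U2AF1L4, a relative of the small subunit, was at 153, 192 and 155 in DMSO and 196, 210 and 214 in BRL-50481 (0.32, standard error 0.12, adjusted p = 0.0377), and its call was lost in 5 of the 6 fits that left out 1 library. Exons of U2AF1L4 also overlap another protein-coding gene on its strand. U2AF1, the small subunit that reads the last bases of the intron, was listed at 0 to 4.03 normalized counts in all 6 libraries and failed the filter on low values. RefSeq lists a further U2AF1-type locus, U2AF1L5, on chromosome 21 of the same build, whose part in the low count was not tested.

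Among the SR proteins, the genes that rose most were 3 well-studied regulators of exon inclusion. SRSF1, the founding member of the family and a proto-oncogene, had 3243, 3075 and 3041 normalized counts with DMSO and 5662, 5353 and 5312 in BRL-50481 (log2 fold change 0.803, standard error 0.0506, adjusted p = 4.59e-08). SRSF7 had 1563, 1612 and 1607 in DMSO and 2568, 2541 and 2614 in BRL-50481 (0.69, standard error 0.0517, adjusted p = 1.89e-07). SRSF3, which also adapts mRNA for export, had 3625, 3775 and 3770 in DMSO and 5138, 5015 and 5030 in BRL-50481 (0.44, standard error 0.0467, adjusted p = 3.68e-06). In each of the 3 the lowest treated library lay well above the highest control library. SRSF4 and SRSF6 were higher by 0.24 each and SRSF10 by 0.17, but SRSF10 was at −0.017 and not called after the correction for length and GC content.

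SRSF11 fell most in this family, from 5626, 5696 and 6188 normalized counts with DMSO to 4140, 4130 and 4070 in BRL-50481 (log2 fold change −0.504, standard error 0.0506, adjusted p = 2.44e-06). SRSF9, the most abundant SR gene per kilobase (5670 normalized counts with DMSO and 4610 in BRL-50481), had 5890, 6715 and 7000 in DMSO and 5260, 5163 and 5513 in BRL-50481 (−0.30, standard error 0.0622, adjusted p = 0.00118). SRSF8 had 1214, 1253 and 1288 in DMSO and 1000, 1068 and 1069 in BRL-50481 (−0.26, standard error 0.0616, adjusted p = 0.00271). These 3 did not overlap between the groups. SRSF2, at −0.15 (adjusted p = 0.0145), lost its call under 4 alternatives, and SRSF5, at 0.0093 (95% confidence interval −0.103 to 0.122), did not pass. Exons of SRSF1, SRSF2, SRSF4, SRSF6 and SRSF9 overlap other annotated genes on their strand, so a part of their reads could be counted elsewhere.

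The hnRNP genes had 7 higher (35%), 10 lower (50%) and 3 not past the threshold. Among all genes with a mean of 1000 normalized counts or more, 29.2% were higher and 40.5% lower. Close relatives among the hnRNP genes also differed in direction. HNRNPA1, which opposes SR proteins at many exons, had 9888, 10284 and 10476 normalized counts with DMSO and 18061, 17737 and 18722 in BRL-50481 (log2 fold change 0.83, standard error 0.0450, adjusted p = 1.23e-08). HNRNPL, which binds CA repeats, had 5257, 5193 and 5057 in DMSO and 9057, 9069 and 9165 in BRL-50481 (0.82, standard error 0.0439, adjusted p = 1.2e-08). HNRNPA3 had 3981, 3930 and 4015 in DMSO and 6862, 6199 and 6579 in BRL-50481 (0.72, standard error 0.0503, adjusted p = 1.09e-07). The 3 genes each gained well over their replicate spread, and HNRNPA2B1 rose with them (0.505, from 17767 to 18361 up to 24603 to 26381 normalized counts). HNRNPD, HNRNPDL and HNRNPM rose by 0.38, 0.21 and 0.18, of which HNRNPDL was not called after the correction for length and GC content (0.12, adjusted p = 0.0508). HNRNPA1 and HNRNPA3 are uncertain to the extent that reads are split with their annotated pseudogenes, 74 and 16 in number. Exons of HNRNPL, and those of HNRNPUL2 (given below), overlap another protein-coding gene on their strand.

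HNRNPH3 fell most among the hnRNP genes, from 13625, 13823 and 13351 normalized counts to 7500, 6844 and 7305 (log2 fold change −0.92, standard error 0.0477, adjusted p = 9.95e-09). Its G-tract-binding relatives HNRNPH1 and HNRNPF fell less, by 0.27 and 0.18, and HNRNPF was not called with quantile normalization (adjusted p = 0.0811). HNRNPAB had 5904, 6609 and 6605 in DMSO and 4298, 4038 and 4370 in BRL-50481 (−0.59, standard error 0.0567, adjusted p = 1.69e-06). HNRNPA0 had 6140, 6647 and 6898 in DMSO and 4637, 4675 and 4783 in BRL-50481 (−0.48, standard error 0.0522, adjusted p = 4.81e-06). Thus in the A and B subgroup by name, HNRNPA1, HNRNPA2B1 and HNRNPA3 rose, while HNRNPA0 and HNRNPAB fell. HNRNPC, which coats pre-mRNA at uridine tracts, fell by 0.38, and HNRNPK, the most abundant hnRNP gene per kilobase, went from 27742, 26912 and 27315 normalized counts to 24140, 23210 and 23794 (−0.20, standard error 0.0419, adjusted p = 0.000968). HNRNPUL2, HNRNPLL and HNRNPR were lower by 0.23, 0.17 and 0.15, of which HNRNPLL lost its call under 4 alternatives (adjusted p up to 0.118) and HNRNPR under 3 (up to 0.0704). HNRNPU (0.068, 95% confidence interval −0.0270 to 0.162), HNRNPUL1 (0.037, −0.0548 to 0.130) and the low-count HNRNPA1L2 (0.33, 0.0260 to 0.629, adjusted p = 0.0590) did not pass. The balance of the family depends on the scaling: with quantile normalization 9 hnRNP genes were higher and 7 lower, and the median log2 fold change was 0.017 in place of −0.058.

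**Figure D3:**
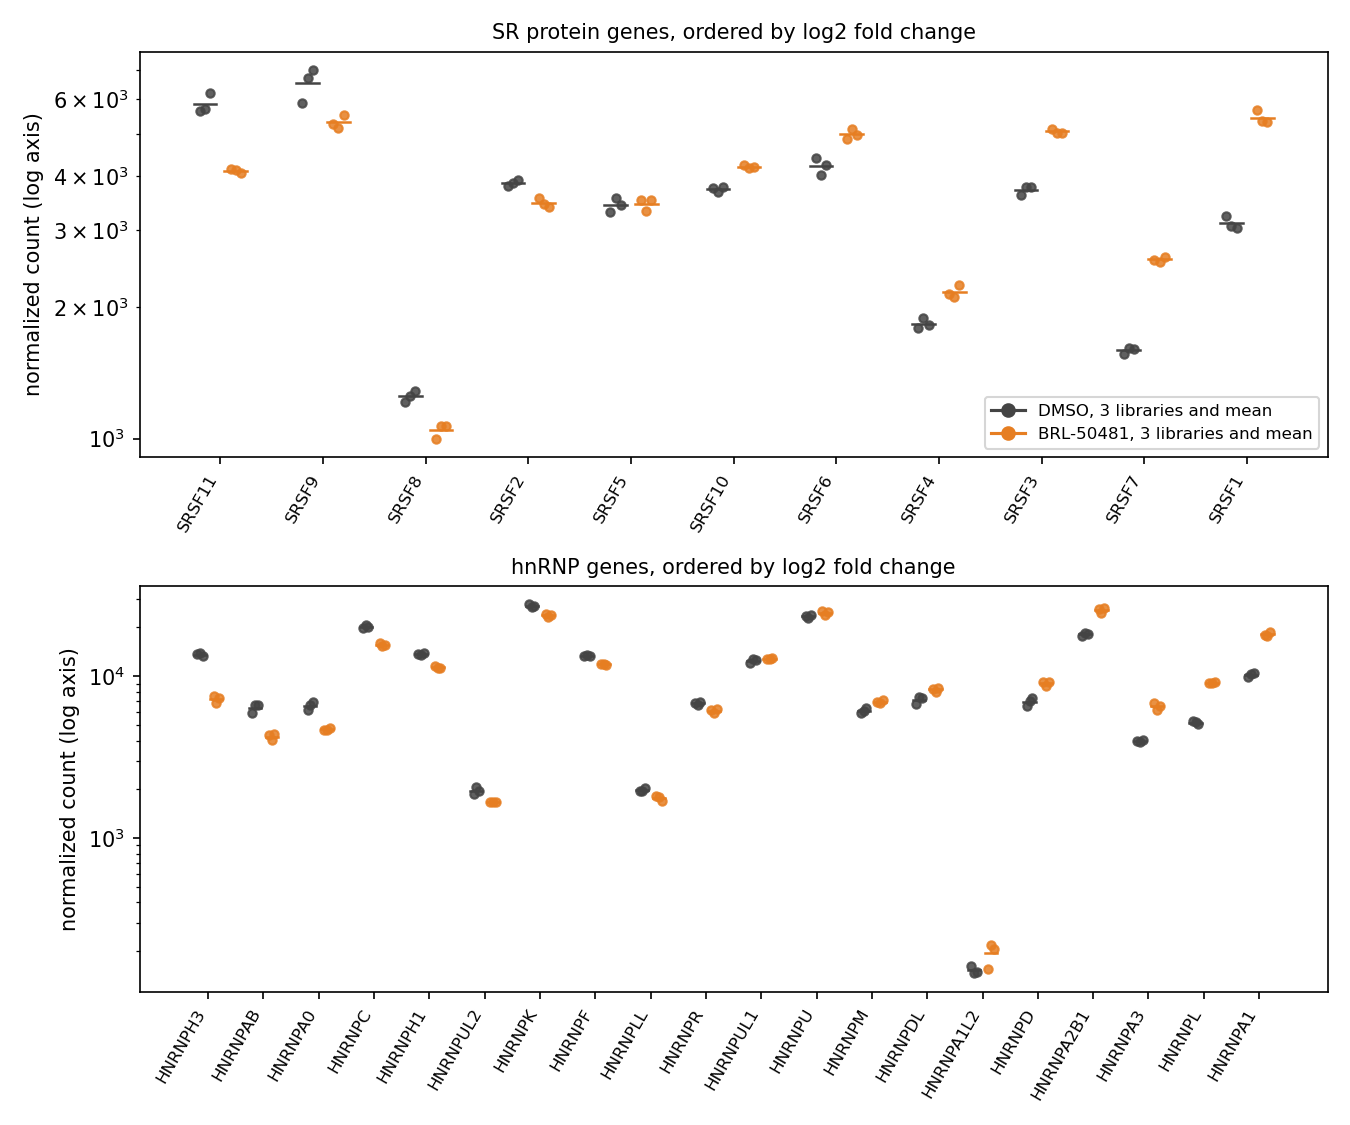
Normalized counts (y axis, log scale) in each of the 6 libraries for the SR protein genes (upper panel) and hnRNP genes (lower panel), ordered by log2 fold change, with points for libraries and lines for group means. The points of the groups trade places from left to right, from SRSF11 (4070 to 4140 in BRL-50481 against 5626 to 6188) to SRSF1 (5312 to 5662 against 3041 to 3243).

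The PRPF genes encode proteins of the tri-snRNP and of the complex that activates the spliceosome. Of the 13, 6 fell (46.2%), 1 rose (7.69%) and 6 did not pass, with a median log2 fold change of −0.0935. The shares over all genes tested were 29.8% lower and 28.9% higher. Among all genes with a mean of 1000 normalized counts or more, 40.5% were lower, which is near the PRPF share, and 29.2% were higher. PRPF18, PRPF38A, PRPF39 and PRPF40B had means under that level. PRPF19, the ubiquitin ligase at the centre of the activating complex, had 6022, 6297 and 6231 normalized counts with DMSO and 3542, 3630 and 3680 in BRL-50481 (log2 fold change −0.77, standard error 0.0467, adjusted p = 3.22e-08). PRPF4, a U4/U6 protein, had 2769, 2748 and 2788 in DMSO and 1635, 1731 and 1687 in BRL-50481 (−0.72, standard error 0.0519, adjusted p = 1.4e-07). PRPF38B had 3841, 4058 and 4018 in DMSO and 2688, 2484 and 2603 in BRL-50481 (−0.62, standard error 0.0521, adjusted p = 5.49e-07). All 3 fell with no overlap between the groups. PRPF18, which acts in the second step of splicing, PRPF6 and PRPF3 fell by 0.29, 0.24 and 0.23. PRPF40B, a U1-associated protein, was the riser, from 220, 278 and 229 to 362, 396 and 435 normalized counts (0.72, standard error 0.111, adjusted p = 0.000107).

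PRPF8, the scaffold of the catalytic core and the most abundant PRPF gene per kilobase over both groups (2230 normalized counts in each), had 18412, 15091 and 15133 in DMSO and 15674, 16898 and 16160 in BRL-50481. The groups overlapped because DMSO replicate 1 was the highest of all 6 libraries (log2 fold change 0.0085, 95% confidence interval −0.140 to 0.157). Without that library PRPF8 was higher by 0.104 (adjusted p = 0.0113), and after the correction for length and GC content it was lower (−0.14, adjusted p = 0.00618), so no direction can be given. PRPF31 likewise passed when DMSO replicate 1 was left out (−0.17, adjusted p = 0.0037). PRPF38A, PRPF39 and PRPF4B lay between −0.089 and 0.048, and the correction for length and GC content raised the number of PRPF genes called lower from 6 to 10. It raised that number over all genes as well, from 4546 to 5551.

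Letters in front of the transcription start were compared next. RefSeq windows of 250 bases before the annotated start (GRCh38.p14) were at hand for 59 of the 67 members, and 9 short motifs were searched on both strands: the ETS-type core CCGGAAG, the cAMP response element TGACGTCA, the E2F-type site TTCCCGC, the E-box CACGTG, the NRF1-type site GCGCATGC, the YY1-type site, the CCAAT box CCAAT, the heat shock element and the TATA box TATAAA. Windows of which a GENCODE exon covers more than 30 bases are not printed, which left 15 of the 49 called members with a window and a mean normalized count of at least 100. Of these, the 3 that rose most and the 3 SNRP or SF3 genes that fell are printed 5′ to 3′ on the strand of the gene, with each match to any of the 9 motifs in capitals, to show where the ETS-type core lies when it is present. They lie at chr19:38852348-38852597 (minus strand), chr6:36594112-36594361 (plus), chr1:29181901-29182150 (minus), chr1:149927804-149928053 (minus), chr6:144095574-144095823 (minus) and chr6:34757255-34757504 (plus).
HNRNPL: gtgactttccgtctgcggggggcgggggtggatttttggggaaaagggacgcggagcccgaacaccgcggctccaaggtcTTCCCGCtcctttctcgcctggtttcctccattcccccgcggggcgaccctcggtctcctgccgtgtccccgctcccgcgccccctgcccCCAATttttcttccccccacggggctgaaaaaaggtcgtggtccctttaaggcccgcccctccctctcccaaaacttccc
SRSF3: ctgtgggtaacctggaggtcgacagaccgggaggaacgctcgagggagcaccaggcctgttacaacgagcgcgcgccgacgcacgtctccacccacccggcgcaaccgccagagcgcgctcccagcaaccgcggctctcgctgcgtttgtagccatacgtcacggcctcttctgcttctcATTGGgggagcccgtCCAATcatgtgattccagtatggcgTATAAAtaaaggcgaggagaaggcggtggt
SRSF4: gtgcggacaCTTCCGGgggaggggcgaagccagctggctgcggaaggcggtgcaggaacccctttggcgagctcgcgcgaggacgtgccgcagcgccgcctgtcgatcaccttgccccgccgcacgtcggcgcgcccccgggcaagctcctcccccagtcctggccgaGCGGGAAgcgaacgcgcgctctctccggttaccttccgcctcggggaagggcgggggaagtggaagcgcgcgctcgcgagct
SF3B4: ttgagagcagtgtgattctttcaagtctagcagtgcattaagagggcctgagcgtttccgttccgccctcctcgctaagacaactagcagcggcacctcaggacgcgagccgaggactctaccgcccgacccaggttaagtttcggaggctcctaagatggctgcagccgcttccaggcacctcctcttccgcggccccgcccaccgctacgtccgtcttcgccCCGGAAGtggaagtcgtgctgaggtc
SF3B5: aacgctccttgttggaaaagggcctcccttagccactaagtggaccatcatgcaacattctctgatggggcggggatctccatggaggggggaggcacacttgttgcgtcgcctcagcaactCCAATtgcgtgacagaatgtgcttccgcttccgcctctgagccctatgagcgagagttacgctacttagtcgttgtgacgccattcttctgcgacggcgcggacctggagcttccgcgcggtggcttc
SNRPC: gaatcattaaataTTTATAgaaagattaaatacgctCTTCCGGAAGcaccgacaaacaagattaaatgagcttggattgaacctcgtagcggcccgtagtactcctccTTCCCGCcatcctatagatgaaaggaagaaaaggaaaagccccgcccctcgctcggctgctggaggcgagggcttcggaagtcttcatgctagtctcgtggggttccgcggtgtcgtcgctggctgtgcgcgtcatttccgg

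The ETS-type core stood in the window of SF3B4, with a match that begins 26 bases before the start, in that of SNRPC, with matches on both strands that overlap and begin 214 and 211 bases before it, and in that of SRSF4, which rose, 241 bases before it. SF3B5, which fell, did not hold it, nor did HNRNPL and SRSF3. Over all members with a window it was found in 21 of 59 (35.6%), compared with 15% of the 10958 genes tested that had one. By call, 17 of 34 members that fell held it (50.0%) and 2 of 15 that rose (13.3%), whereas over all genes it was found in 18.2% of those called lower and 12.9% of those called higher. By family, it was in 7 of 10 SNRP and 6 of 8 SF3 windows, and in 2 of 10 SRSF, 3 of 19 HNRNP and 2 of 9 PRPF windows. Of the SNRP genes with a window, SNRPA (which rose) was among those without it, and SNRPA1 (not past the threshold) held it. Most of the members that fell and held it were SNRP or SF3 genes. As nearly all called genes of these families fell, family and direction cannot be told apart within them. In the SRSF and HNRNP families, which moved both ways, the called members that held it were HNRNPF and HNRNPLL (lower) and HNRNPD and SRSF4 (higher). The letters are a description and not a bound site.

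**Figure D4:**
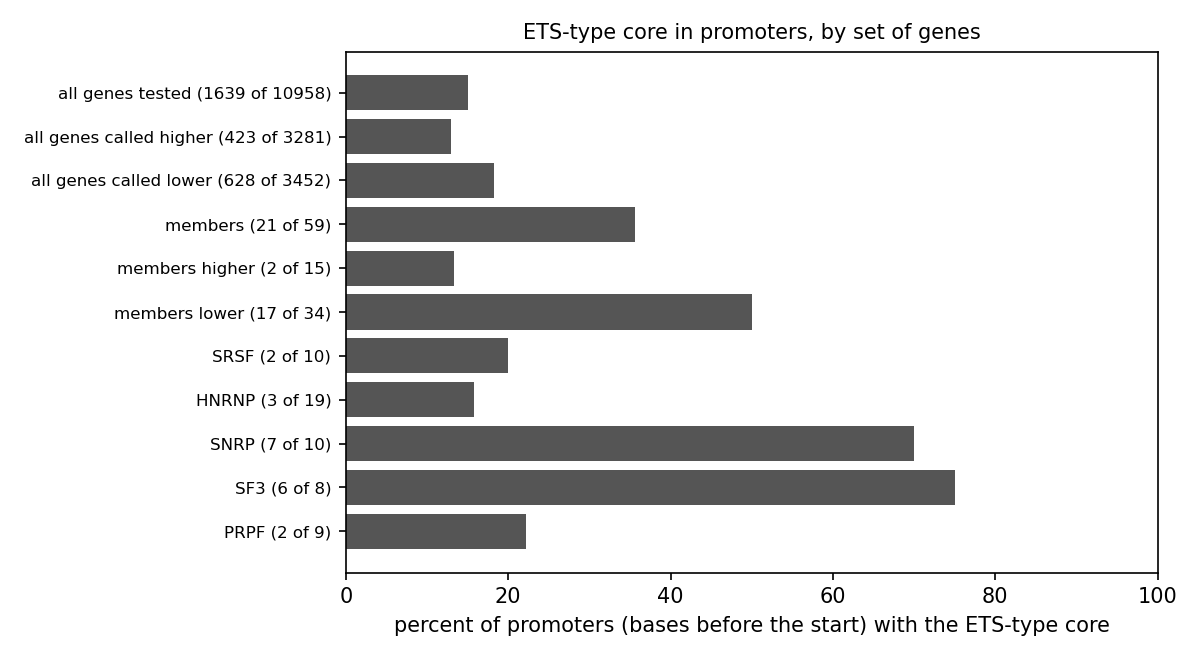
Percent of promoter windows (x axis, 250 bases before the start) that hold the ETS-type core, for all genes tested, for genes called in each direction, and for members by call and family, with the number of windows in brackets. The bars for SF3 (6 of 8) and SNRP (7 of 10) are the longest, and the bar for all genes tested stands at 15%.

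Other genes of the splicing pathway were taken from 10 lists written from general knowledge, which held 174 tested genes outside the families above. Of these, 99 fell (56.9%) and 26 rose (14.9%), and their median log2 fold change was −0.21. Over all genes tested, 29.8% were lower and 28.9% higher. Among those with a mean of 1000 normalized counts or more, 40.5% were lower and 29.2% higher. The lists nearest to the snRNPs were among the most one-sided. Of the LSM proteins, most of which form the ring that holds U6, 8 of 10 were lower and 1 higher, led by LSM7 (−0.75) and LSM3 (−0.73), with LSM8 higher by 0.19. Among the genes for snRNP assembly, which load the Sm ring onto snRNA, 13 of 17 were lower and 0 higher, led by GEMIN7 (−0.65, standard error 0.101) and STRAP (−0.65, standard error 0.0467). At an unadjusted p under 0.05 the number of assembly genes that rose was 0. Of 18 further tri-snRNP and particle proteins, 11 were lower and 0 higher (0 at an unadjusted p under 0.05), led by TXNL4A (−0.71) and SNU13 (−0.64). Among the partners of PRPF19 and the step factors, 17 of 26 were lower, CTNNBL1 most (−0.84), and 3 were higher, CWC22 among them (0.30).

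SR proteins are switched by phosphorylation, and 5 of the 7 tested kinases of the CLK, SRPK and DYRK1A group were lower (71.4%). A further kinase planned for this list, PRP4K, is PRPF4B, counted above with the PRPF genes and not past the threshold (0.040, adjusted p = 0.522). Over all genes tested, 29.8% were lower and 28.9% higher. Among those with a mean of 1000 normalized counts or more, these shares were 40.5% and 29.2%. CLK3 had 1979, 2211 and 2106 normalized counts with DMSO and 1289, 1423 and 1388 in BRL-50481 (log2 fold change −0.62, standard error 0.0631, adjusted p = 2.78e-06), and CLK2 had 1096, 1151 and 1149 in DMSO and 808, 827 and 740 in BRL-50481 (−0.52, standard error 0.0674, adjusted p = 2.38e-05). The treated libraries lay below the controls for both. SRPK1 did not pass (−0.028, adjusted p = 0.607). Of 18 SR-related genes 9 were lower (50%), SRRT most (−0.64), and 5 were higher (27.8%), TRA2A most (0.57). Of 12 partners at the branch point and the end of the intron, 7 were lower (58.3%), among them PHF5A, already given with SF3B, and DNAJC8 (−0.65). In that list 3 were higher (25%), led by RBM10 (0.39) and U2SURP (0.28).

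Of 37 further regulators of splice site choice, 16 were lower (43.2%) and 8 higher (21.6%). Among all genes with a mean of 1000 normalized counts or more, 40.5% were lower and 29.2% higher. FUBP1 went from 1299, 1194 and 1161 normalized counts to 2554, 2432 and 2408 (log2 fold change 1.02, standard error 0.0606, adjusted p = 2.85e-08). ESRP1, the epithelial splicing regulator, was low at 54.6, 60.7 and 60.3 and reached 116, 137 and 174 (1.25, standard error 0.168, adjusted p = 3.15e-05). Both lay clear of their controls, while KHDRBS3 (−0.87) and CIRBP (−0.69) fell most in that list. After splicing, the exon junction complex and nonsense-mediated decay list had 8 of 15 genes lower (53.3%), UPF3B (−1.09) and EIF4A3 (−0.799) most. It had 4 higher (26.7%), SMG6 (0.49) most. In the import and export list, 5 of 14 were lower, with NXF1 (−0.76), the main mRNA export receptor, at the head, and 2 higher, which is 35.7% and 14.3% against 29.8% and 28.9% of all genes tested.

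**Figure D5:**
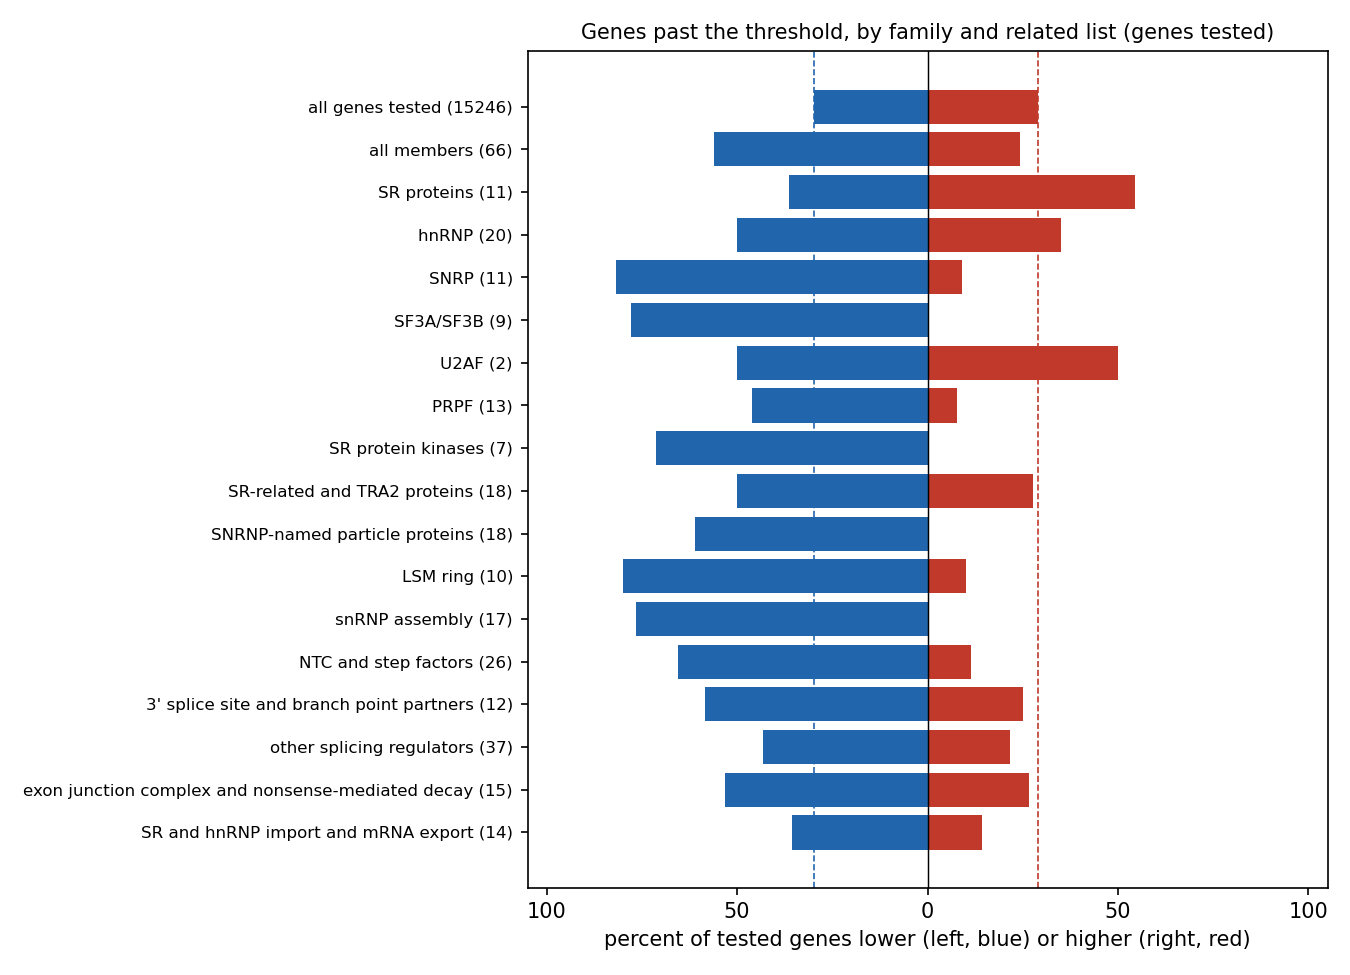
Percent of tested genes called lower (left) and higher (right) at an adjusted p under 0.05, for all genes tested, the splicing factor genes, each family and the 10 related lists, with the number tested in brackets and dashed lines at the shares of all genes (29.8% lower and 28.9% higher). The SNRP, SF3 and LSM bars reach farthest to the left, and only the SR protein, hnRNP and U2AF bars pass the right-hand dashed line.

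Across members, the log2 fold change was higher for longer transcripts (Spearman's rho 0.328 over 66 genes), as it did over the 14737 tested genes with a known length (0.172). These points share libraries and normalization, and the values are given as a description. The median transcript was 1082 bases long for SNRP and 2774 for SF3, against 3959 for SRSF and 3396.5 for HNRNP. After the correction for length and GC content, 44 members were lower and 15 higher, the SR protein median moved from 0.17 to 0.018, and the SNRP and SF3 medians were −0.483 and −0.577. The whole table shifted too, with 5551 of all genes lower and 4303 higher, against 4546 and 4400 without the correction. The median over all genes moved from 0.015 to −0.031.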

How the data were processed

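RNA sequencing of 6 MDA-MB-231 libraries, 3 DMSO and 3 BRL-50481, was read from 1 table. The authors aligned single-end reads to hg38 with STAR 2.7.1a, ran htseq-count for the reverse strand on UCSC genes, and normalized with DESeq2 1.28. The deposited signal is thus reads per gene over a size factor. The table also holds the authors' mean signal, log2 fold changes, their errors, a test score and p-values of their own comparison, which were not used.

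The 15246 genes that reached 4 normalized counts in 3 or more libraries were compared by limma 3.58.1 (R 4.3.3, trended eBayes, group as the only term) on log2 of the normalized count plus 1. The Benjamini-Hochberg adjustment covered all of them, and the procedure was tested on simulated data. Transcript length, GC content and positions came from GENCODE release 44 canonical transcripts (14216 genes by current and 890 by older symbols, 96.5% with both properties), and promoter windows from RefSeq.

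Members and lists were chosen with earlier results of these data known. Genes given with all 6 values are, per family, up to 3 of the largest rises and falls among called members with a mean of at least 100 and the most abundant per kilobase over all 6 libraries. SNRPC and, from the lists, CLK2, CLK3, FUBP1 and ESRP1 are also given with all 6 values. Lists name up to 2 genes each way. Other genes were named after their values were seen, and the 9 motifs were chosen from general knowledge. 1 member is counted but not reported here by name. Replicate numbers were not taken as pairs. Python 3.11.15, pandas 2.3.3 and matplotlib 3.10.9 were used.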

Additional observations from a re-analysis of the deposited data

How the results depend on the processing

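Under the 15 alternatives run, 46 of the 53 called members kept their call and 7 lost it at least once, and 10 of the 13 others passed under at least 1. SRSF10 was the only called member to change sign. The median over members was −0.115 with quantile normalization, −0.16 with median centring and −0.245 with the length and GC correction, compared with −0.19. That correction also gave 10 PRPF genes lower in place of 6, and turned PRPF8 from 0.0085 to −0.136. With it, 5551 of all genes were lower in place of 4546. With quantile normalization 0 of the tested U2AF genes were higher (U2AF1L4, adjusted p = 0.131, 0.0564 to 0.114 in the 5 fits without 1 library that lost it), and in the fits without 1 library the number was 0 to 1. In those fits the PRPF genes higher were 1 to 2, with 2 only without DMSO replicate 1. The causes were not tested.

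With the replicate number as a block, 16 members were higher and 37 lower, as without it, and 4440 and 4589 of all genes. The replicate numbers are not taken as pairs, since the deviations of same-numbered libraries correlated at 0.121, 0.104 and 0.0514. Scaling by trimmed means, edgeR and DESeq2 were planned but not run. Whole reads could be rebuilt from the table, but they were not used as counts here. Gene totals hold no isoforms, so exon use was not analysed here, and U2AF1, with counts near 0, was tested only without the filter on low values (log2 fold change 0.877, adjusted p = 0.375).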

Other observations

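Other motifs were also unevenly spread over the promoter windows of the splicing factor genes, on small counts. The E-box CACGTG was found in 4 of 15 members that rose (HNRNPA3, HNRNPD, HNRNPDL and HNRNPM, 26.7%) and 1 of 34 that fell (HNRNPH3, 2.94%), against 8.67% of all genes tested with a window. The E2F-type site was in 5 of 15 that rose and 4 of 34 that fell, against 8.58%. The NRF1-type site was in 2 of 15 that rose and 1 of 34 that fell, against 4.52%. The CCAAT box was in 6 of 15 and 14 of 34, against 34.9%, and more often in HNRNP (12 of 19) and PRPF windows (6 of 9) than in SF3 windows (1 of 8), as counts without a test. The cAMP response element was found in 0 of 59 member windows and in 2.76% of all genes tested with one, which says only that these 8 letters are not in these 250 bases. HNRNPA2B1, which rose, was the single member with the heat shock element.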
